A study of Mus musculus with 28 samples.

Results

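The ligands and antagonists described here were 10 genes of the bone morphogenetic protein (BMP) and activin branch of the transforming growth factor-β superfamily, chosen by name out of 56980 genes in the bulk table: the ligand genes *Bmp2*, *Bmp4*, *Bmp6*, *Gdf10*, *Inhba*, and *Inhbb*, and the antagonist and follistatin-family genes *Fst*, *Fstl1*, *Grem1*, and *Chrdl1*. All 10 were found and all passed the filter on low counts. Bulk RNA was measured in single vessels of C57BL/6 mice: 7 contralateral jugular veins (5 female, 2 male) and the outflow veins of carotid–jugular arteriovenous fistulas (AVFs) collected early, about day 3 (8 AVFs, 3 female and 5 male), mid, about day 10 (5 AVFs, 3 female and 2 male), and late, about day 21 (5 AVFs, 3 female and 2 male). Every mouse, including those that gave control veins, had undergone a 5/6 nephrectomy before the fistula surgery, so no group had normal kidney function, and the ages of the mice were not given. Single-cell RNA was measured in 3 libraries of pooled male and female vessels, with 1 library for contralateral veins, 1 for early and 1 for late AVFs, which the study collected on other days than the bulk vessels.

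BMPs and activins are secreted dimers that bind pairs of type I and type II serine/threonine kinase receptors. BMP receptors activate Smad1, Smad5, and Smad8, which induce the *Id* genes, while activin receptors activate Smad2 and Smad3. Secreted antagonists such as gremlin, chordin-like proteins, and follistatin bind the ligands and keep them from their receptors, and in vessels this branch is known for its roles in endothelial quiescence, smooth muscle phenotype, and calcification.

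Bulk libraries held 20254173 to 67457501 counts, and 12673 genes were tested. Levels are CPM, counts divided by the TMM-scaled library size, and a gene was called when its adjusted *p* (edgeR quasi-likelihood test, Benjamini–Hochberg over all tested genes) was under 0.01 and its log2 fold change was at least 1 in size. The libraries of contralateral veins were less alike than those of AVFs, with a median Spearman correlation across genes of 0.678 against 0.867, 0.956, and 0.953 in early, mid, and late AVFs, and contralateral vein 28 and early AVF 6 stood apart from their groups. Parathyroid marker genes summed to over 1000 CPM in early AVF 1, mid AVF 12, and late AVF 19, and to at most 12.8 CPM in contralateral veins. Calls without these 3 AVFs are given below, and the source of these transcripts was not tested. The 3 comparisons with contralateral veins share those 7 veins and are not independent of each other.

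Of the 10 genes, 7 had a promoter sequence in the reference table (RefSeq, GRCm38.p6, 250 bases before to 50 after the transcription start), and *Bmp2*, *Fst*, and *Chrdl1* had none. The promoters of 4 of these 7 genes are shown, because among the 7 they carry the largest early changes in each direction and the contrast between both activin subunits: *Gdf10* and *Grem1*, which fell, *Inhbb*, which rose, and its relative *Inhba*, which was not called. Capitals mark 3 motifs searched on both strands: GGCGCC, a palindrome that Smad1 and Smad5 are known to bind in BMP-responsive genes and that 11.9% of the 32851 promoters hold, CAGAC, the Smad box, which 49.6% hold, and TATAAA, which 13.6% hold. The windows were chr14:33923337-33923636 (plus strand) for *Gdf10*, chr2:113758599-113758898 (minus strand) for *Grem1*, chr1:119422199-119422498 (minus strand) for *Inhbb*, and chr13:16011601-16011900 (plus strand) for *Inhba*.
Gdf10: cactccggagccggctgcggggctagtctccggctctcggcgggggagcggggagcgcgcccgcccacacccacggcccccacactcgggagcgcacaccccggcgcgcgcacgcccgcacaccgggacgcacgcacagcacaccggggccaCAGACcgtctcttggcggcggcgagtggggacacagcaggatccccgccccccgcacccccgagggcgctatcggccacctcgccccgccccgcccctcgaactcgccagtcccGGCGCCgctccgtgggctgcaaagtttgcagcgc
Grem1: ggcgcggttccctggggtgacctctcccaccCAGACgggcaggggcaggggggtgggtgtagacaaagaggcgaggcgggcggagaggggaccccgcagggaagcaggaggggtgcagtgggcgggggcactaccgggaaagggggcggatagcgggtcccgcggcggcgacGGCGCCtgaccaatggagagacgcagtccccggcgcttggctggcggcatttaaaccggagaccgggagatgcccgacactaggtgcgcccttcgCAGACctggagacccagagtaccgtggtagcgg
Inhbb: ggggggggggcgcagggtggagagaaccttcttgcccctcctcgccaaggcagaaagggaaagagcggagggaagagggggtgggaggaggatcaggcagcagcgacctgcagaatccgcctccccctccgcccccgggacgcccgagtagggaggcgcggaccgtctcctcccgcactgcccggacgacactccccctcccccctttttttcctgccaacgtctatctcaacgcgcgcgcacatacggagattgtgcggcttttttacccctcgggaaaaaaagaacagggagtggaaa
Inhba: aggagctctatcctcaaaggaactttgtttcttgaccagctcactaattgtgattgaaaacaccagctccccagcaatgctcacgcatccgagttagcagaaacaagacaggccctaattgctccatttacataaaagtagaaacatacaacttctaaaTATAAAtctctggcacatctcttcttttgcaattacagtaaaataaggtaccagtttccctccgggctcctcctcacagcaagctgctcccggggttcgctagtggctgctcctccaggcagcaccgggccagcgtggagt

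The promoters of *Gdf10* and *Grem1* each held 1 GGCGCC, with 1 and 2 CAGAC. The promoter of *Inhbb* held none of the 3 motifs, and that of *Inhba* held 1 TATAAA. Among the promoters not shown, that of *Bmp4*, which also fell in early AVFs, held none of the 3 motifs. The promoter of *Bmp6*, which fell as well, held 1 CAGAC and no GGCGCC, and that of *Fstl1* held none of the 3. The base composition differed as well, with 77.3% G and C in *Gdf10*, 70.7% in *Grem1*, 64.3% in *Inhbb*, and 47.7% in *Inhba*, against a median of 52.7% over all promoters. These matches describe the letters of the windows and were not tested against expression.

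In early AVFs, 6 of the 10 genes fell (*Bmp4*, *Bmp6*, *Gdf10*, *Fst*, *Grem1*, and *Chrdl1*) and 1 rose (*Inhbb*), where 6.86% of all tested genes were called lower and 5.88% higher. The median log2 fold change of the 10 genes was −2.31, −1.56, and −1.16 at the 3 times, beside −0.06, −0.03, and −0.02 over all genes tested. The 10 genes and the gene lists used below were chosen with earlier results of these data known. Their counts beside these backgrounds are therefore descriptive and no independent test. Mid AVFs had 4 genes called lower (*Bmp4*, *Gdf10*, *Grem1*, and *Chrdl1*) and 1 higher (*Fstl1*), with backgrounds of 2.95% and 2.9%. Late AVFs had 2 genes called lower (*Bmp4* and *Grem1*) and none higher, with backgrounds of 2.48% and 2.6%. *Bmp2* and *Inhba* were called at no time point. The vessels of both groups did not overlap for 4 of the 10 genes in early AVFs, for 5 in mid AVFs, and for 4 at the late time, where 6.85%, 12.3%, and 10.7% of all tested genes did not. In a setting added after seeing the data, which left out contralateral vein 28 and early AVF 6, the genes called numbered 7, 6, and 5 at the early, mid, and late time. In another, which left out the 3 AVFs with parathyroid markers, they numbered 6, 5, and 1. When only the vessels of a contrast were fitted, *Bmp6* (adjusted *p* = 0.018), *Inhbb* (adjusted *p* = 0.0526), and *Fst* (adjusted *p* = 0.0247) did not pass in early AVFs, nor did *Bmp4* in mid (adjusted *p* = 0.0128) or late AVFs (adjusted *p* = 0.0517), while *Chrdl1* passed in late AVFs (adjusted *p* = 0.0098).

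**Figure D1:**
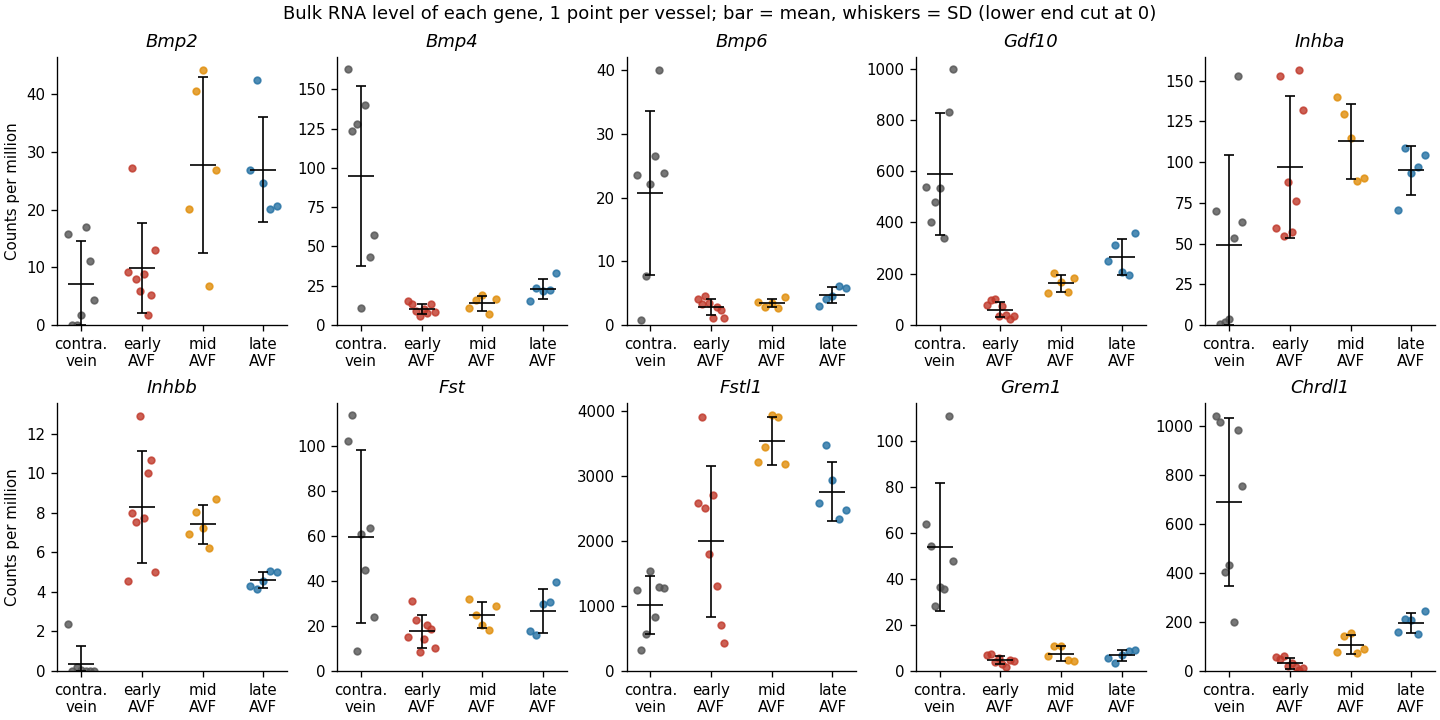
Bulk level of each gene in CPM (vertical axes, from 0) in each vessel of the 4 groups (horizontal axes). Points are vessels, bars are means, and whiskers are SDs. For *Gdf10*, *Grem1*, and *Chrdl1* all 8 early AVFs sit below all 7 contralateral veins, and for *Inhbb* all 8 sit above them.

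Among the BMP ligands, *Gdf10*, which encodes a BMP3-related growth factor, had the highest level per exon length in contralateral veins. In contralateral veins its lowest, median, and highest values were 339.8, 534, and 997 CPM, and in early AVFs they were 22.6, 55.9, and 101.5 CPM. Mid AVFs had 123.9, 130.0, 168.6, 182, and 205 CPM, and late AVFs had 194.0, 206, 249.6, 310, and 359 CPM. Every early and mid AVF was below every contralateral vein, and the late AVFs lay between, with 1 of 5 overlapping the veins. The log2 fold change over contralateral veins was −3.29 (SE 0.31, adjusted *p* = 2.15e-08) in early AVFs. It was −1.86 (SE 0.35, adjusted *p* = 0.000723) in mid AVFs, and −1.16 (SE 0.34, adjusted *p* = 0.0277, not called) in late AVFs, where it passed without vein 28 or vein 35. Late AVFs exceeded early ones by 2.13 (SE 0.32, adjusted *p* = 0.000539), with no overlap.

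*Bmp4*, a ligand that endothelial and stromal cells make, had 10.7, 123.3, and 162.7 CPM as lowest, median, and highest values in contralateral veins. Early AVFs had 5.73, 9.49, and 14.9 CPM, mid AVFs had 7.07, 10.5, 15.7, 16.6, and 19.1 CPM, and late AVFs had 15.1, 21.8, 22.1, 23.5, and 32.9 CPM. Contralateral vein 34, at 10.7 CPM, was the only vein inside the range of the early and mid AVFs, and it alone made the groups overlap. Log2 fold changes over contralateral veins were −3.20 (SE 0.43, adjusted *p* = 3.72e-06), −2.78 (SE 0.51, adjusted *p* = 0.000457), and −2.04 (SE 0.49, adjusted *p* = 0.00643) in early, mid, and late AVFs. In late AVFs *Bmp4* no longer passed without late AVF 16, 17, 19, or 23 (adjusted *p* up to 0.0204). It also did not pass without the 3 AVFs with parathyroid markers (adjusted *p* = 0.031).

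*Bmp6*, a ligand made by endothelial cells and known for the control of hepcidin, was low throughout. Contralateral veins had 0.853, 23.5, and 40.1 CPM as lowest, median, and highest values, and the 18 AVFs ranged from 1.06 to 6.19 CPM. Contralateral vein 28 was below all AVFs, so the groups overlapped, while the other 6 veins were above them. *Bmp6* fell in early AVFs (log2 fold change −2.86 with SE 0.58 and adjusted *p* = 0.00066), and it was not called in mid (−2.60, SE 0.69, adjusted *p* = 0.0122) or late AVFs (−2.14, SE 0.67, adjusted *p* = 0.039). Without vein 28, it was called at both later times (adjusted *p* = 0.000439 and 0.00217).

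*Bmp2*, an osteogenic ligand, was not called. It had 0, 4.29, and 17.0 CPM in contralateral veins and 1.79, 8.41, and 27.3 CPM in early AVFs, as lowest, median, and highest values. Mid AVFs had 6.84, 20.1, 27.0, 40.6, and 44.3 CPM, and late AVFs had 20.2, 20.6, 24.6, 26.9, and 42.5 CPM. All 5 late AVFs were above all contralateral veins, yet the log2 fold changes of 1.96 (SE 0.95, adjusted *p* = 0.199) in mid and 1.92 (SE 0.95, adjusted *p* = 0.215) in late AVFs did not pass. Contralateral veins 28 and 31 had no *Bmp2* count.

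The activin subunit genes differed in pattern. *Inhbb*, which encodes the activin βB subunit, had 0 CPM in 4 of 7 contralateral veins and 0.044, 0.178, and 2.36 CPM in the others. Early AVFs had 4.54, 7.86, and 12.9 CPM as lowest, median, and highest values, mid AVFs had 6.19, 6.91, 7.25, 8.03, and 8.70 CPM, and late AVFs had 4.13, 4.28, 4.53, 5.01, and 5.06 CPM. Every AVF was above every contralateral vein. *Inhbb* rose in early AVFs (log2 fold change 4.47 with SE 1.08 and adjusted *p* = 0.00342), and its values of 4.31 (SE 1.12, adjusted *p* = 0.0109) in mid and 3.62 (SE 1.09, adjusted *p* = 0.0312) in late AVFs were not called. Contralateral vein 27, at 2.36 CPM, decided these values: without it the log2 fold changes were 7.79, 7.48, and 6.79, and all 3 were called. With so few counts in contralateral veins these fitted values depend on the prior count of the fit.

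*Inhba*, which encodes the activin βA subunit, was split among contralateral veins. Veins 28, 31, and 34 had 0.67, 1.83, and 3.39 CPM, and the other 4 veins had 53.5 to 152.7 CPM. The 3 low veins were all female, and the other 4 were the female veins 27 and 35 and the male veins 632 and 633. AVFs of all times ranged from 54.7 to 156.7 CPM, above the 3 low veins and overlapping the other 4. Log2 fold changes over contralateral veins were 0.98 (SE 0.65, adjusted *p* = 0.31), 1.19 (SE 0.72, adjusted *p* = 0.317), and 0.94 (SE 0.72, adjusted *p* = 0.458), and no difference beyond the spread among veins was detectable.

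Among the antagonists, *Chrdl1*, which encodes chordin-like 1, a secreted BMP-binding protein, showed the largest fall of the 10 genes in early AVFs. Contralateral veins had 200.1, 754, and 1040 CPM as lowest, median, and highest values, and early AVFs had 2.92, 26.8, and 61.0 CPM. Mid AVFs had 71.1, 78.2, 89.9, 141.1, and 154 CPM, and late AVFs had 151.0, 157, 209, 211, and 245 CPM. Early and mid AVFs did not overlap the veins, and late AVFs overlapped them only through vein 35, the lowest vein. Log2 fold changes over contralateral veins were −4.44 (SE 0.48, adjusted *p* = 1.64e-07), −2.69 (SE 0.54, adjusted *p* = 0.00114), and −1.82 (SE 0.51, adjusted *p* = 0.0209, not called). Late AVFs exceeded early ones by 2.61 (SE 0.47, adjusted *p* = 0.00263) without overlap, a call that was lost without late AVF 24 (adjusted *p* = 0.0109).

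*Grem1*, which encodes gremlin 1, an antagonist of BMP2, BMP4, and BMP7, fell at all 3 times. Contralateral veins had 28.2, 48.0, and 111.2 CPM as lowest, median, and highest values, and early AVFs had 1.56, 4.72, and 7.19 CPM. Mid AVFs had 4.49, 4.84, 6.66, 10.7, and 11.0 CPM, and late AVFs had 3.50, 5.85, 6.95, 8.63, and 9.21 CPM. No AVF overlapped any contralateral vein. Log2 fold changes over contralateral veins were −3.51 (SE 0.43, adjusted *p* = 1.09e-06), −2.84 (SE 0.51, adjusted *p* = 0.000373), and −2.98 (SE 0.51, adjusted *p* = 0.000299), and late AVFs did not pass against early ones (0.52, SE 0.44, adjusted *p* = 0.73).

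*Fst*, which encodes follistatin, the antagonist that binds activins with high affinity, had 9.10, 61.0, and 114.1 CPM as lowest, median, and highest values in contralateral veins and 8.53, 17.0, and 31.2 CPM in early AVFs. Mid AVFs had 18.2, 20.4, 24.9, 28.9, and 32.2 CPM, and late AVFs had 16.0, 17.7, 29.7, 30.9, and 39.7 CPM. Only the low vein 31 and vein 633 reached into the range of the AVFs. *Fst* fell in early AVFs (log2 fold change −1.76 with SE 0.41 and adjusted *p* = 0.00278), a call lost without early AVF 3 and without the 3 AVFs with parathyroid markers (adjusted *p* = 0.0109 in both), and it was not called in mid (−1.26, adjusted *p* = 0.0879) or late AVFs (−1.16, adjusted *p* = 0.124).

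*Fstl1*, a follistatin-related glycoprotein of mesenchymal cells, had the highest level per exon length of the 10 genes in contralateral veins and early AVFs. It had 326, 1242, and 1541 CPM in contralateral veins and 429.6, 2157, and 3916 CPM in early AVFs, as lowest, median, and highest values. Mid AVFs had 3191, 3211, 3443, 3910, and 3944 CPM, and late AVFs had 2333, 2474, 2583, 2941, and 3476 CPM, all above every contralateral vein. *Fstl1* rose in mid AVFs (log2 fold change 1.81 with SE 0.39 and adjusted *p* = 0.00235), while 0.98 (SE 0.35, adjusted *p* = 0.0425) in early and 1.45 (SE 0.39, adjusted *p* = 0.0143) in late AVFs did not pass. Without early AVF 7, the lowest early AVF, the early value was called (adjusted *p* = 0.00916).

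**Figure D2:**
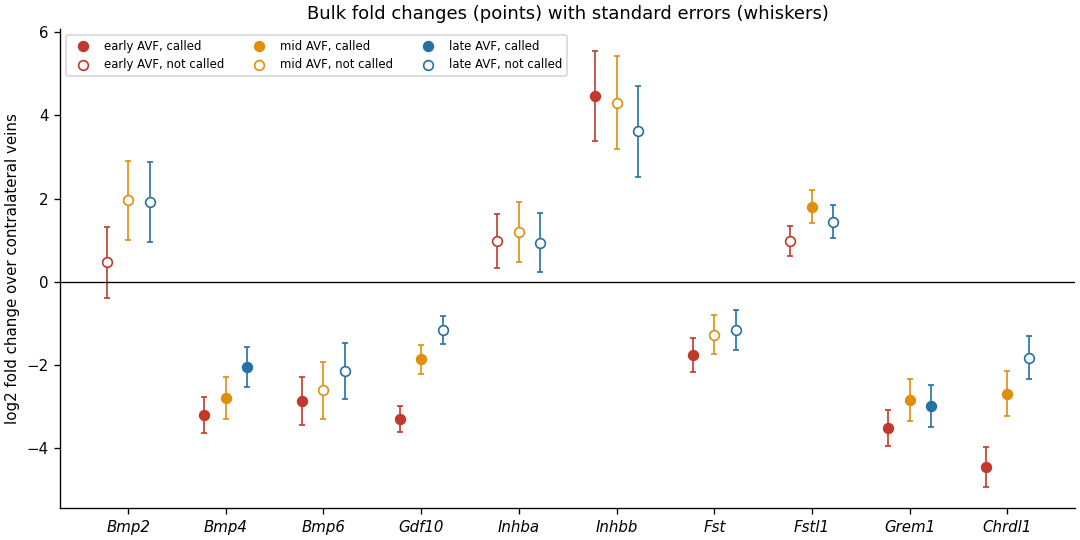
Log2 fold change over contralateral veins (vertical axis) of each gene (horizontal axis) in early, mid, and late AVFs, with standard errors as whiskers. Filled points passed the threshold and open points did not: 7 genes were called early, 5 mid, and 2 late.

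Levels per kilobase of exon (GENCODE M21 lengths) put the genes of contralateral veins in the order *Fstl1* (206 CPM per kb), *Gdf10* (113.1), *Chrdl1* (101.9), *Bmp4* (42.3), *Fst* (13.0), *Grem1* (13.0), *Inhba* (7.71), *Bmp6* (5.31), *Bmp2* (2.00), and *Inhbb* (0.087). *Gdf10* and *Chrdl1* (SD 45.6 and 50.7) did not differ beyond the spread among veins, nor did *Fst*, *Grem1*, and *Inhba*. In early AVFs the order was *Fstl1* (407 CPM per kb), *Inhba* (15.2), *Gdf10* (11.5), *Chrdl1* (4.71), *Bmp4* (4.59), *Fst* (3.86), *Bmp2* (2.79), *Inhbb* (1.95), *Grem1* (1.14), and *Bmp6* (0.73).

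Between time points, *Gdf10* and *Chrdl1* were called higher in late than in early AVFs, where 0.781% of genes were called higher, and none of the 10 was called between mid and early or between late and mid AVFs, where 0.00789% and 0% of genes were called in either direction. In mid against early AVFs, *Gdf10* (log2 fold change 1.43, adjusted *p* = 0.0192) and *Chrdl1* (1.75, adjusted *p* = 0.0355) did not overlap between groups, as 8.7% of all genes did not. *Gdf10*, *Chrdl1*, and *Bmp4* (1.16, SE 0.43, adjusted *p* = 0.13) did not overlap between late and early AVFs, as 15.9% of all genes did not, and *Inhbb* (−0.69) was lower in all 5 late than in all 5 mid AVFs without overlap, where 2.04% of all genes did not overlap. Over all genes, 1541 had an unadjusted *p* under 0.05 in mid against early AVFs and 40 in late against mid AVFs, and DESeq2 called 474 and 1.

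Markers of several cell types, though not of all immune cells, moved with these changes. Smooth muscle and pericyte markers summed to 9603 to 21720 CPM in contralateral veins and 1036 to 2406 CPM in early AVFs, with 7 of 9 called lower. Endothelial markers summed to 2319 to 4065 and 356 to 739 CPM, with 6 of 9 lower, and markers of *Inmt* and *C7* fibroblasts to 1570 to 4469 and 110.4 to 678 CPM, with 6 of 6 lower. Mono/macrophage markers summed to 2071 to 8316 and 11300 to 33230 CPM, with 8 of 10 higher. General fibroblast markers summed to 15960 to 43460 and 3427 to 40310 CPM, with 3 of 8 lower and none higher. Neutrophil markers had medians of 129.4 CPM in contralateral veins and 1436.5 CPM in early AVFs, with 6 of 7 tested higher, and skeletal muscle markers summed to at most 31.1 CPM in contralateral veins and up to 4317 CPM in early and 8628 CPM in late AVFs, with 6 of 7 higher in early AVFs. Other immune lists differed in early AVFs: 0 of 6 T and NK cell markers tested were called, and 1 of 4 B cell markers was lower. Of 6 dendritic cell markers 2 were higher and 1 lower, and of 5 mast cell markers 2 were lower. Adipocyte markers had medians of 4161 CPM in contralateral veins and 1208 CPM in early AVFs, with 1 of 6 called, higher. In bulk RNA, fewer cells of a type and less RNA per cell cannot be told apart, and the part of these cell types in the changes of the 10 genes was not tested.

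Of 65 other genes of the pathway, 45 were tested. In early AVFs 2 were called higher and 11 lower, in mid AVFs 1 and 3, and in late AVFs 1 and 4, with median log2 fold changes of −0.41, −0.16, and −0.17. Over all tested genes, 5.88% were called higher and 6.86% lower in early AVFs, 2.9% and 2.95% in mid, and 2.6% and 2.48% in late AVFs. Of 13 receptors and co-receptors tested, *Bmpr1b*, a BMP type I receptor, rose from 0.026 CPM, with 5 reads over 7 veins and none in 5 of them, to 3.73, 8.05, and 7.31 CPM in early, mid, and late AVFs (log2 fold changes 6.89, 8.0, and 7.87, adjusted *p* = 1.64e-06, 1.41e-06, and 2.13e-06). The type II receptor gene *Bmpr2* (−1.15, adjusted *p* = 0.00252), the endothelial co-receptor gene *Eng* (−1.40, adjusted *p* = 0.00152), and the betaglycan gene *Tgfbr3* (−1.52, adjusted *p* = 0.000113) fell in early AVFs. None of 5 signal-transducing Smad genes and none of 5 intracellular and membrane inhibitor genes tested was called at any of the 3 times.

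Of 10 other extracellular antagonists and modulators tested, 4 fell in early AVFs, among them *Crim1*, a BMP-binding membrane protein (−2.60, adjusted *p* = 5.91e-08), *Twsg1*, twisted gastrulation (−1.86, adjusted *p* = 4.32e-06), and *Nbl1*, a secreted BMP antagonist (−1.48, adjusted *p* = 0.00204). *Crim1* was lower at all 3 times. *Twsg1* and *Nbl1* were higher in late than in early AVFs (1.70 and 1.96, adjusted *p* = 0.000924 and 0.003). Of 7 BMP-responsive transcription factor genes tested, 3 fell in early AVFs: *Id4* (−4.79, SE 0.39, adjusted *p* = 1.67e-09), *Id2* (−1.57, SE 0.22, adjusted *p* = 8.76e-06), and *Msx1* (−2.95, SE 0.47, adjusted *p* = 3.97e-05).

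*Id4* had 126.6, 222, and 466.6 CPM as lowest, median, and highest values in contralateral veins and 4.45, 6.41, and 22.9 CPM in early AVFs, with no overlap at any of the 3 times. *Id2* was lower at all 3 times as well. *Id1* and *Id3*, named after their values were seen, were not called in early AVFs (−0.64, adjusted *p* = 0.269, and −0.80, adjusted *p* = 0.0119). Of 3 convertase genes whose enzymes cut ligand precursors, *Furin* rose (1.78, adjusted *p* = 0.00896) and *Pcsk5* fell (−1.91, adjusted *p* = 0.00195) in early AVFs.

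Single-cell libraries gave the level of these transcripts in each class of captured cells. After filtering, 6319 cells of contralateral veins, 4753 of early AVFs, and 5821 of late AVFs remained, with medians of 2751, 8951, and 15425 UMIs, and 17 barcodes occurred in more than 1 library. The 10 genes were left out of the clustering. With 1 library per condition no test was possible, and values are CPM of the summed UMIs of a class with exact Poisson 95% intervals, which cover counting error only. Fibroblast-like cells of contralateral veins fell mostly in cluster 2 and those of AVFs in clusters 1 and 12, smooth muscle and pericyte-like cells were few in contralateral veins (48, 275, and 589 cells), and endothelial-like cells were few in AVFs (812, 65, and 76 cells). At a clustering resolution of 1.0, a smooth muscle cluster with *Myh11* among its top genes held 3, 152, and 302 cells of the contralateral, early, and late libraries. Another, with *Rgs5* among its top genes, held 45, 123, and 287. The mix of smooth muscle and pericyte-like cells thus differed between libraries, and its part in their levels was not tested.

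**Figure D3:**
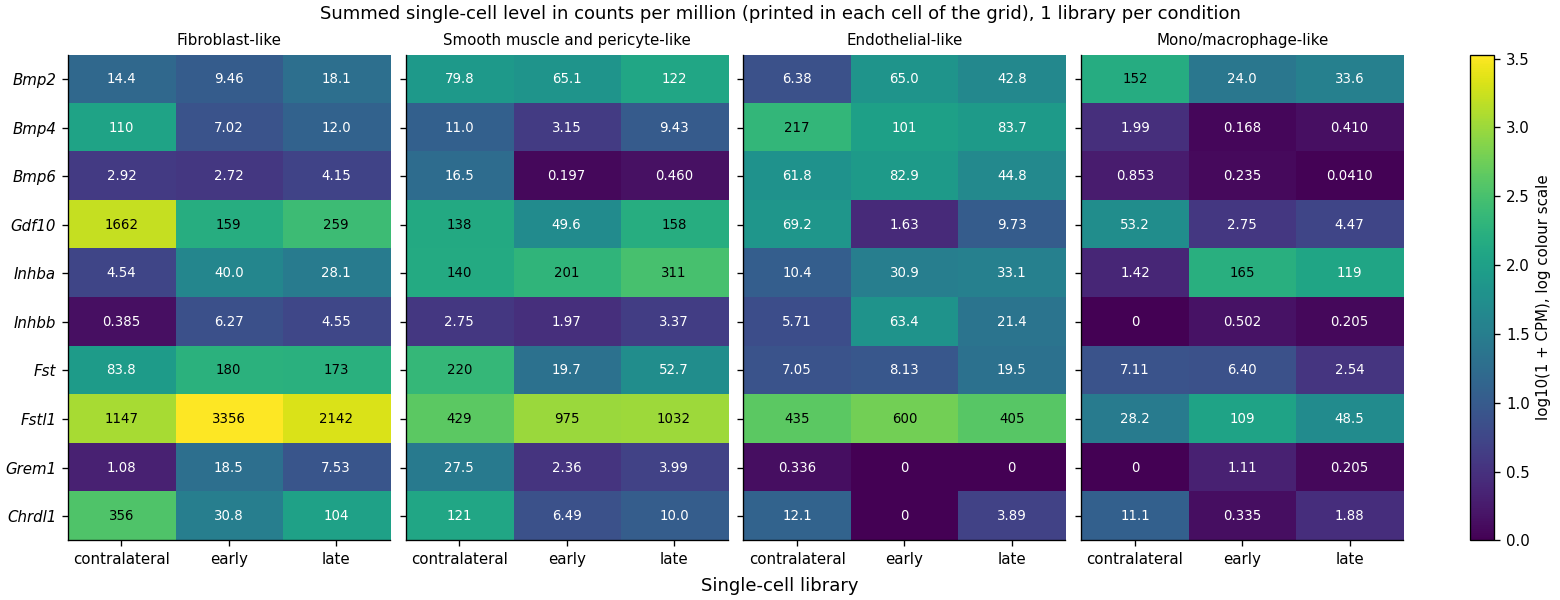
Summed level in CPM (printed in the grid and colored on a log scale) of each gene (rows) in 4 cell classes (panels) and 3 libraries (columns). *Gdf10* and *Chrdl1* are highest in fibroblast-like cells, *Bmp4* and *Bmp6* in endothelial-like cells, and *Inhba* in smooth muscle and pericyte-like cells in all 3 libraries.

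*Gdf10* and *Chrdl1* were highest in fibroblast-like cells. Fibroblast-like cells had 1662 CPM of *Gdf10* (interval 1640 to 1684) in contralateral veins, 158.8 (151.4 to 166.6) in early AVFs, and 259 (254.9 to 264) in late AVFs, and held 95.3%, 78.5%, and 85.3% of the libraries' *Gdf10* UMIs. *Chrdl1* followed with 356, 30.8, and 103.5 CPM. Taken over all fibroblast-like cells, both were lower in AVFs, by 10.5-fold and 11.5-fold in the early library. In the late library they were lower by 6.41-fold and 3.44-fold. The mix of fibroblast subsets differed between libraries, with 975 *Inmt* and *C7* cells in contralateral veins and 30 in late AVFs. The part of this mix in the folds was not tested. T and NK-like cells, which should lack *Gdf10*, had 57.2 CPM in contralateral veins and 4.31 and 6.66 CPM in AVFs, and platelet-like cells of contralateral veins had 170.2 CPM. The fibroblast levels of the contralateral library exceeded both, and whether free RNA or doublets gave these counts was not tested.

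Within fibroblasts of contralateral veins, the *Inmt* and *C7* cells had 2012 CPM of *Gdf10* and the *Pi16* cells 195.2 CPM, although *Gdf10* took no part in the clustering. *Inmt* and *C7* cells of late AVFs had 1060 CPM of *Gdf10* (930.8 to 1203, from 30 cells). Their *Chrdl1* level was 403.2 CPM in contralateral veins and 233.2 CPM (174.7 to 305.1) in late AVFs. The *Pi16* cells had 317.6 CPM of *Gdf10* (275.9 to 363.8, from 22 cells) in early and 96.8 CPM in late AVFs. The early level was above the contralateral one, but *Pi16* cells of contralateral veins and AVFs lay in different subclusters. Of the 140 contralateral *Pi16* cells, 136 lay in 1 subcluster, while 21 of 22 early and 644 of 654 late ones lay in another. Fibroblasts of the late *Thbs4* class had 872.3 CPM of *Gdf10* in contralateral veins (786.9 to 964.5, from 35 cells), 326.0 CPM in early, and 366.8 CPM in late AVFs. *Fst* had 52.0 CPM in *Inmt* and *C7* cells of contralateral veins, and in *Pi16* cells it had 308 CPM (280.6 to 337.4) in contralateral veins, 276.3 CPM (237.6 to 319.7) in early, and 250.6 CPM (243.5 to 257.8) in late AVFs.

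*Bmp4* was highest in endothelial-like cells, with 217 CPM (200.8 to 234.6) in contralateral veins, 100.7 (77.2 to 129.2) in early AVFs, and 83.7 (60.5 to 112.7) in late AVFs. Fibroblast-like cells had 109.6 CPM in the contralateral, 7.02 in the early, and 12.0 in the late library, a 15.6-fold and a 9.17-fold lower level. The fall per cell class was larger in fibroblast-like than in endothelial-like cells, with no replicate to test it. *Bmp6* was highest in endothelial-like cells, at 61.8, 82.9, and 44.8 CPM, and their counting intervals overlapped between libraries. Fibroblast-like cells, at 4.15 CPM, held 209 of the 244 *Bmp6* UMIs of the late library, and endothelial-like cells held 23.

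*Inhba* and *Bmp2* were highest outside the fibroblast-like cells. Smooth muscle and pericyte-like cells had 140.3, 201, and 311 CPM of *Inhba*. Mono/macrophage-like cells had 1.42 CPM in contralateral veins, from 5 UMIs, 164.5 (160.0 to 169.2) in early AVFs, and 118.5 in late AVFs, and held 72.2% of *Inhba* UMIs in the early library. T and NK-like cells had 1.09 CPM in contralateral veins and 18.3 CPM in early AVFs, and the mono/macrophage-like cells of contralateral veins fell mostly in cluster 11 and those of AVFs in clusters 0 and 3. *Bmp2* was highest in mono/macrophage-like cells of contralateral veins, at 151.8 CPM against 50.3 CPM in T and NK-like cells, and had 24.0 and 33.6 CPM in those of early and late AVFs. Smooth muscle and pericyte-like cells had 79.8, 65.1, and 122.3 CPM of *Bmp2*. Endothelial-like cells had 65.0 CPM in the early library, from 40 UMIs. That was 10.2-fold (counting interval 5.90 to 17.6) above their contralateral level, from 19 UMIs, and in the late library they were 6.71-fold above it, from 22 UMIs. *Inhbb* was sparse, with its highest level in endothelial-like cells (5.71, 63.4, and 21.4 CPM, from 17, 39, and 11 UMIs). Fibroblast-like cells held more of the *Inhbb* UMIs in AVFs, with 67 of 140 in the early and 229 of 294 in the late library. In contralateral veins they held 5 of 24.

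*Fst*, which fell in early AVFs in bulk RNA, and *Grem1*, which fell at all 3 times, were higher in the AVF libraries in fibroblast-like cells as a whole. *Fst* was not higher in the *Pi16* cells among them, which lay mostly in different subclusters in contralateral veins and AVFs. *Fst* had 83.8 CPM in fibroblast-like cells of contralateral veins, 180.4 in early AVFs, and 172.7 in late AVFs. In smooth muscle and pericyte-like cells *Fst* had 220 CPM in contralateral veins, from 80 UMIs in 48 cells of a different mix, and 19.7 and 52.7 CPM in AVFs. *Grem1* had 1.08 CPM in fibroblast-like cells of contralateral veins, from 14 UMIs in 2 cells, and 18.5 and 7.53 CPM in early and late AVFs. These levels rested on few cells too, with 194 of 198 early UMIs in 21 activated *Postn* cells and 340 of 379 late UMIs in 35 *Thbs4* cells. In smooth muscle and pericyte-like cells *Grem1* had 27.5 CPM in contralateral veins, from 10 UMIs in 2 of 48 cells, and 2.36 and 3.99 CPM in AVFs. Over all cells the contralateral library had 0.89 CPM of *Grem1*, from 26 UMIs in 6 cells, while the bulk veins had a mean of 54.0 CPM. The cells that held the *Grem1* of the bulk veins were therefore not identified. *Fstl1* was 1147, 3356, and 2142 CPM in fibroblast-like cells, higher in AVFs as in bulk RNA.

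**Figure D4:**
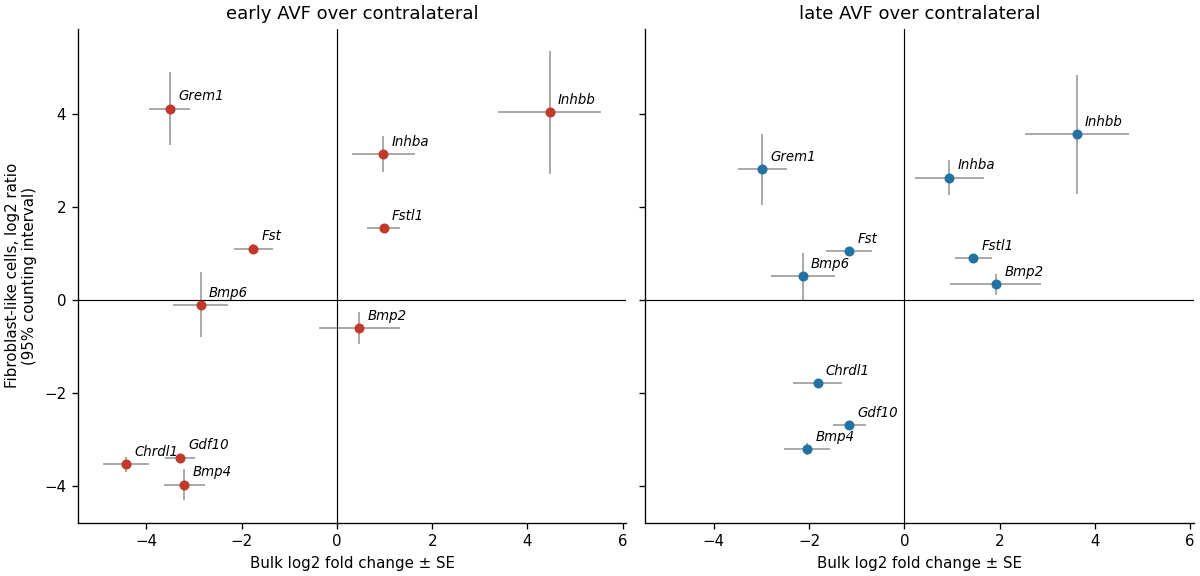
Bulk log2 fold change over contralateral veins with its SE (horizontal axis) against the log2 ratio of the AVF to the contralateral library in fibroblast-like cells with its 95% counting interval (vertical axis), for early and late AVFs. *Gdf10*, *Chrdl1*, and *Bmp4* are below 0 on both axes, *Inhbb*, *Inhba*, and *Fstl1* above 0 on both, and *Grem1* and *Fst* are below 0 in bulk and above 0 in fibroblast-like cells. The *Grem1* ratios rest on 14 UMIs in 2 contralateral cells.

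The genes nearest in pattern over the 25 bulk libraries, by the root mean square difference of log2 CPM centered on each gene's mean, were named for the 3 genes with the largest called changes. Nearest to *Inhbb* were *Gdf15*, *E2f7*, and *Raet1d* (0.646, 0.669, and 0.69, where the median of all genes was 2.68). Nearest to *Chrdl1* were *Ecm2*, *Podn*, and *C2* (0.717, 0.734, and 0.759, median 2.73). Nearest to *Grem1* were *Synpo2*, *Mylk*, and *Filip1l* (0.658, 0.682, and 0.688, median 2.39).

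No interaction of sex and group passed the test for any of the 10 genes (smallest adjusted *p* = 1 over the 3 interaction terms tested together), while 13 of all genes had one at an adjusted *p* under 0.05. This test had only 2 male contralateral veins. The early log2 fold change of males minus that of females was 7.11 for *Inhbb* and −3.19 for *Inhba* (edgeR adjusted *p* = 0.34 and 0.425).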

How the data were processed

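The members and gene lists were chosen with earlier results of these data known. The authors deposited raw read counts per gene for the 25 bulk libraries and, from Cell Ranger 6.0.2 per the file headers, UMI counts per gene and barcode for the 3 single-cell libraries. The submitters' processing notes name STAR and the builds mm10 and GRCm38. Their role for the bulk table, its counting method, and its annotation release were not given in the sources used here. Groups were taken from the labels, and p-values measure the spread among vessels.

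Genes whose DESeq2-normalized counts averaged 100 or more were tested with edgeR 4.0.16 (R 4.3.3): TMM scaling, 1 quasi-likelihood fit of all 4 groups, and Benjamini–Hochberg adjustment, in 6 contrasts. The threshold of 0.01 was taken from the study's results; its methods give 0.05, tried as an alternative. Scripts were tested on simulated data. All 10 genes were named, with the pathway genes called against contralateral veins (except 1, which is not reported here) and the 3 nearest genes of the 3 members with the largest changes.

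Of 26438 barcodes, 16893 with 200 to 6000 detected genes and no more than 10% of counts from mitochondrial genes were used. Cells were clustered with leidenalg 0.10.2 (2000 variable genes, 12 components, 20 neighbors, resolution 0.5) and named from marker lists. Scrublet (scanpy 1.11.5) called 0%, 0.0421%, and 1.94% of cells doublets in contralateral, early, and late libraries, so it did not work in the first 2, and doublets stayed in.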

Additional observations from a re-analysis of the deposited data

Results flagged for a closer look

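Of 40 groups of vessels (10 genes in 4 groups), 2 held a vessel whose distance from its nearest neighbor was large for the range of the group, and chance flags about 1 in 20 groups. *Inhbb* had 2.36 CPM in contralateral vein 27, where the next highest vein had 0.178 CPM. *Bmp2* had 27.3 CPM in early AVF 10, where the next highest early AVF had 13.1 CPM. The cause of neither was tested.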

How the results depend on the processing

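No paired analysis was possible because the groups compared share no replicate numbers. With DESeq2's size factors in edgeR, all counts and fold changes of the 10 genes kept their direction and side of the threshold. With DESeq2 1.42.0 as the test, 7 of the 10 genes were called in late AVFs and 2 in mid against early AVFs, beside 8 pathway genes in mid AVFs and 1 in mid against early AVFs. Over all genes, edgeR called 1614 in early, 742 in mid, 643 in late, and 302 in late against early AVFs, while DESeq2 called 2440, 1418, 1294, and 753. At an adjusted *p* under 0.05, 7 of the 10 genes were called in late AVFs and 2 in mid against early AVFs, and pathway genes numbered 8 in late AVFs, 4 in late against early, 8 in mid AVFs, and 2 in mid against early. With only the 2 groups of a contrast fitted, 4 of the 10 genes and 8 pathway genes were called in early AVFs, and 3 pathway genes in late AVFs. With edgeR's own filter, 4 of the 10 genes and 11 pathway genes were called in late AVFs and 10 pathway genes in mid AVFs; with no filter these were 4, 11, and 9. With sex as a term, 1 of the 10 genes was called in late AVFs.

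In female mice only, which leaves 5 contralateral veins and 3 AVFs a time point, 2 of the 10 genes were called in early AVFs and 0 in mid, late, and late against early, and 2 pathway genes in early, mid, and late AVFs and 0 in late against early. The sign of 5 values that were not called turned there: *Bmp2* late against mid 0.039, *Fst* late against early −0.0508 and mid against early −0.0655, *Grem1* late against early −0.15, and *Inhba* mid against early −0.56. The cause of these changes beyond the fewer samples was not tested.

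Leaving out 1 vessel at a time gave 6 to 8 of the 10 genes called in early AVFs, 5 to 6 in mid, 1 to 4 in late, 0 to 1 in mid against early, 1 to 2 in late against early, and 0 in late against mid. Pathway genes ranged from 11 to 15, 4 to 7, 4 to 7, 0 to 1, 1 to 3, and 0. The sign turned for *Inhba* in mid against early (−0.0347 to 0.34) and late against early (−0.27 to 0.0914), and in late against mid for *Bmp2* (−0.29 to 0.19), *Fst* (−0.079 to 0.24), and *Grem1* (−0.28 to 0.0287), none of them called. As alternatives added after seeing the data, leaving out contralateral vein 28 and early AVF 6 gave 5 of the 10 genes in late AVFs, and leaving out the 3 AVFs with parathyroid markers gave 1 in late AVFs and 1 pathway gene in late against early. In the single-cell libraries, a mean over cells in place of summed UMIs moved 9 of 20 fibroblast ratios beyond counting error and turned none. Low UMI counts limited *Inhbb* (24, 140, and 294 UMIs in the contralateral, early, and late libraries), *Bmp6* (240, 93, and 244), and *Grem1* (26, 250, and 440). Whether depth or the cells captured gave these low counts was not tested.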

Other observations

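The other genes of the pathway differed by cell class in the single-cell libraries as well, with 1 library per condition and no test. *Id4* had 313.6 CPM in smooth muscle and pericyte-like cells of contralateral veins, from 114 UMIs, 54.7 CPM in early, and 41.9 CPM in late AVFs, and 24.1, 8.52, and 9.08 CPM in fibroblast-like cells. *Crim1* had 873 CPM in endothelial-like cells of contralateral veins, 364 in early, and 340.5 in late AVFs. *Bmpr1b* had no UMI in smooth muscle and pericyte-like cells of contralateral veins and 16.9 and 17.7 CPM in those of early and late AVFs, from 86 and 231 UMIs.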
